A study of Papio hamadryas with 4 samples.

Results

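Kidney biopsies of baboons (Papio hamadryas) with a high SLC phenotype (HSLC) were compared with those of baboons with a normal SLC phenotype (NSLC), both taken after 6 weeks on a low sodium diet. The comparison uses the HSLC array and the NSLC array of that diet, which are 2 of the 4 arrays in the series. The other 2 come from the same phenotypes after 6 weeks on a high sodium diet and are given only as levels or as a parallel ratio. Total RNA was hybridised to Illumina bead arrays designed on human genes, and each group has 1 array. The sources used here do not give the number of animals behind an array, their age, the order of the diets or any pooling. Because each group lacks replicates, values carry no error and differences were not tested. A ratio is 1 array over 1 array, and a size rule of 2-fold (a log2 ratio of 1 or -1) sorts genes by size only.

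The labels do not spell out SLC. In hypertension research the abbreviation is used for sodium-lithium countertransport, an ion exchange across the red cell membrane that has been studied as a marker of raised blood pressure, and it is unrelated to the SLC prefix of solute carrier genes. On a low sodium diet the kidney retains sodium under the control of renin, angiotensin and aldosterone. Most filtered sodium is taken back with solutes in the proximal tubule, and the thick ascending limb, the distal convoluted tubule and the collecting duct retrieve the rest. Skeletal muscle is not part of the kidney. Its sarcomere is built of myosin thick filaments, actin thin filaments with troponin, and Z-discs, and its transcripts are therefore described apart from those of the kidney.

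Both arrays carried the transcripts of a kidney. Of 98 nephron marker genes with a probe, 86 were above the detection limit (the median intensity of the array) on both arrays. Of all 18774 genes, 12357 were above it on both. On the NSLC array 52 of the 98 were brighter than the 90th percentile of all probes, and on the HSLC array 51. Among them were AQP1, the water channel of the proximal tubule, and GATM, which makes the precursor of creatine there. That percentile covers all 48701 probes, and the share of all genes above it was not counted. The median intensity was 77.7 on the NSLC array and 72.1 on the HSLC array, and the 99th percentiles were 2320 and 2360. After normalization the arrays correlated across 12357 genes detected on both at a Pearson r of 0.991, or 0.994 without the muscle list. Genes are not independent replicates, so these values only describe the pair.

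The HSLC sample on low sodium stood apart from the other 3 samples by its skeletal muscle transcripts. Muscle genes made up 24 of the 34 genes that were 2-fold or more higher in HSLC, and the remaining 10 higher genes and all 6 lower genes lay outside the muscle list. The share of all tested genes was 0.275% for 2-fold higher and 0.0486% for 2-fold lower. Outside the muscle list these shares were 0.0814% and 0.0488% of 12286 genes. None of the 86 detected nephron markers reached 2-fold in either direction. At shares this small, that does not set them apart from other genes. In a biopsy more cells of a type and more RNA per cell cannot be told apart.

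**Figure D1:**
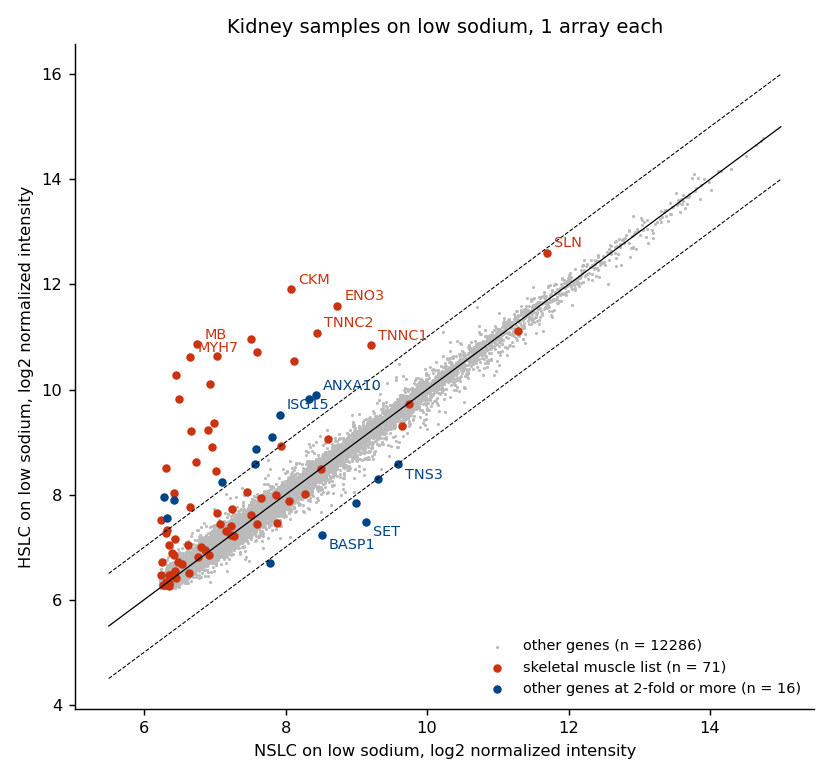
Log2 normalized intensity of each gene in the NSLC sample (horizontal axis) and the HSLC sample (vertical axis) on low sodium, with 1 point a gene. Red points are the skeletal muscle list, dark blue points the 16 other genes at 2-fold or more, the solid line marks equality and the dashed lines 2-fold. The muscle genes at 2-fold or more all lie above the upper dashed line, and the grey points keep to the solid line.

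Myoglobin (MB), the oxygen store of muscle fibres, had a deposited intensity of 110 in NSLC and 1717 in HSLC on low sodium, and of 72.0 in NSLC and 61.3 in HSLC on high sodium. The HSLC low sodium value was far above the other 3, and the NSLC low sodium value was above both high sodium values. The normalized ratio on low sodium was 17.3-fold (log2 ratio 4.11). CKM, the creatine kinase that regenerates ATP in muscle, read 243 in NSLC and 3538 in HSLC on low sodium, and 207 and 159 on high sodium. Only the HSLC low sodium sample was high for CKM, with a ratio of 14.3-fold (3.84).

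The thick filament held the most genes of this kind. Of its 17 listed members 10 were detected on both arrays, all 10 had a ratio above 0, and 8 were at 2-fold or more, with a median log2 ratio of 2.83. MYH7, the myosin heavy chain of slow fibres, read 103 in NSLC and 1431 in HSLC on low sodium, and 83.9 and 64.1 on high sodium. MYH2, a myosin heavy chain of fast fibres, had log2 normalized levels of 6.45 in NSLC and 10.27 in HSLC on low sodium, and of 5.92 and 6.07 on high sodium. Both myosins were therefore high in 1 sample of 4, at log2 ratios of 3.96 and 3.82. MYBPC1, the slow form of myosin-binding protein C, stood at 3.32, and 1.32 on its other detected probe. MYBPC2, the fast form, stood at 1.12. In the series matrix as deposited it stood at 0.84, short of 2-fold, where the median of all genes was -0.24. The light chain MYL1 stood at 3.47, with its other probes at 2.79 and 0.25, so the probes of this gene disagree.

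Most detected thin filament and Z-disc genes stood high with the myosins. In the thin filament list 5 of 6 detected members were above 0 and 4 at 2-fold, with a median of 1.75. The exception was LMOD3 (-0.16), which read 2204 in NSLC and 2036 in HSLC on low sodium. TNNC2, the calcium-binding troponin of fast fibres, read 307 in NSLC and 1989 in HSLC on low sodium, and 86.4 and 70.4 on high sodium. For TNNC2 the NSLC low sodium sample was also clearly above both high sodium samples. TNNT3, the fast troponin T, was 12.2-fold higher in HSLC (3.61), and TNNC1, the troponin C of slow and cardiac fibres, 3.10-fold (1.63). In the Z-disc list, 10 of 10 detected members were above 0 and 6 at 2-fold, with a median of 1.69. These 6 were MYOZ1 (2.42), which binds calcineurin at the Z-disc, the fast-fibre actinin ACTN3 (2.38), the titin cap TCAP (2.33), KLHL41 (2.20), PDLIM3 (1.94) and NRAP (1.44).

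Fast and slow fibres were both represented. Of 14 fast-fibre genes 9 were detected on both arrays and 7 were at 2-fold, with a median of 2.42. All 5 detected of 9 slow-fibre genes were at 2-fold, with a median of 3.11. The exceptions among fast genes were ATP2A1, the calcium pump of fast fibres (-0.41), and PVALB, a calcium buffer that the distal nephron also expresses (-0.34). PVALB read 686 in NSLC and 579 in HSLC.

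Muscle genes for calcium handling, receptors and regulation differed less. Of 14 detected calcium and excitation genes 11 were above 0 with a median of 0.21, and HRC, a calcium-binding protein of the sarcoplasmic reticulum, alone was at 2-fold (1.60). Sarcolipin (SLN), which restrains the calcium pump, stood at 0.91, from 2937 in NSLC to 5655 in HSLC on low sodium. Its high sodium readings were 4594 in NSLC and 3735 in HSLC, so this probe was bright in every sample. Of 15 detected regulators 9 were above 0, with a median of 0.09. SMYD1, a methyltransferase of striated muscle, lay just inside the size rule, and at 0.95 with no normalization, while the master regulators MYOD1 (-0.04) and MYOG (0.24) were near the detection limit. Of 5 membrane and synapse genes 1 was above 0, and their median was -0.02.

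Energy enzymes of muscle split in the same way. ENO3, the muscle enolase, read 366 and 2815 on low sodium and 440 and 302 on high sodium, a ratio of 2.87 on its bright probe and 0.15 on its other probe. EEF1A2, an elongation factor that replaces EEF1A1 in muscle and neurons, stood at 3.18. CKMT2, the mitochondrial creatine kinase, lay just outside 2-fold, below it by the third decimal. COX7A1, a cytochrome oxidase subunit of muscle and heart, stood at -0.02 and FABP3, a fatty acid carrier, at -0.07.

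All 124 genes of the muscle list are accounted for. Of these 118 had a probe, 71 were detected on both low sodium arrays, 22 in HSLC only, 2 in NSLC only and 23 in neither. The 71 had a median log2 ratio of 0.43 with 54 above 0, against 0.0029 and 50.8% above 0 over all genes tested. Of the 22 detected in HSLC only, 7 were at least 2-fold higher, with the NSLC array set at its median. They were the fast light chain MYL11 (at least 5.15-fold higher), the fast troponin TNNI2 (at least 4.35-fold), AMPD1, which deaminates AMP (at least 4.23-fold), nebulin (NEB, at least 3.07-fold), the slow troponin TNNT1 (at least 2.89-fold), PGAM2 (at least 2.39-fold) and the fast myosin MYH4 (at least 2.33-fold). These 7 are all the genes of the array with a bound of 2-fold in either direction, among 505 detected in HSLC only and 439 in NSLC only.

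The muscle list as a whole was also brightest in the HSLC low sodium sample. Its summed deposited intensity was 19498 in NSLC and 46450 in HSLC on low sodium, and 21323 in NSLC and 18017 in HSLC on high sodium. As a share of the summed intensity of all genes this was 0.351%, 0.822%, 0.290% and 0.306%, so NSLC on low sodium was below NSLC on high sodium by the sum and above it by the share. The 24 genes at 2-fold alone summed to 3839 and 26245 on low sodium and to 3081 and 2655 on high sodium. The HSLC low sodium sample was brightest of the 4 for all 24, and for 21 of them the NSLC low sodium sample was above both high sodium samples. On high sodium the ratio of HSLC over NSLC for these 24 did not exceed 0.44 in size. Only 14 of the 24 were detected on both high sodium arrays. For the others a high sodium ratio near 0 does not show an equal level.

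**Figure D2:**
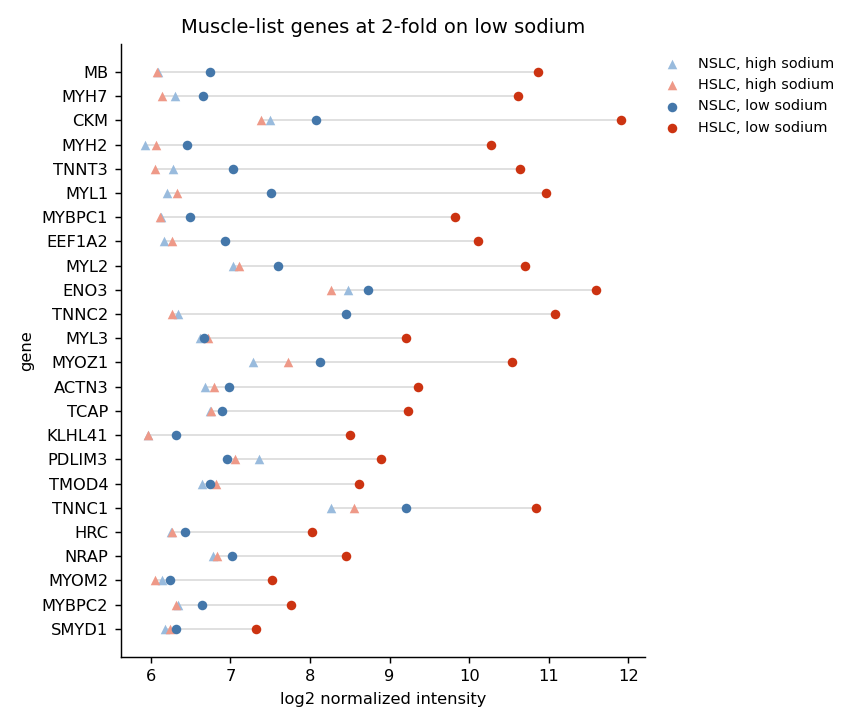
Log2 normalized intensity (horizontal axis) of the 24 muscle-list genes at 2-fold or more on low sodium (vertical axis), with 1 point for each of the 4 samples. Circles are low sodium, triangles high sodium, blue NSLC and red HSLC. The dark red circle of HSLC on low sodium lies right of the other points in all 24, and the dark blue circle lies right of both triangles in 21.

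Outside the muscle list, 5 of the 10 higher genes are known from contractile tissue and were chosen for this remark after their values were seen. DHRS7C, a reductase of the muscle sarcoplasmic reticulum, read 80.8 in NSLC and 231 in HSLC on low sodium, and 74.9 and 65.8 on high sodium. MYBPH, a myosin-binding protein, read 88.8 and 221 on low sodium, and 95.2 and 77.2 on high sodium. Like the listed muscle genes, both stood high in the HSLC low sodium sample only, at log2 ratios of 1.66 and 1.46. FHL3, a LIM protein of muscle, stood at 1.23. DES, the muscle intermediate filament desmin, stood at 1.13, and at 0.99 with cyclic loess. In the series matrix as deposited DES stood at 0.90, where the median of all genes was -0.24. PDLIM7, a scaffold of the actin cytoskeleton, stood at 1.49 and at 0.64 on its other probe. On high sodium these 5 genes ranged from -0.08 to 0.41, with DHRS7C below the detection limit on both arrays of that diet. The muscle list moved with all 5 on low sodium, and its part in their ratios was not tested.

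ISG15, a ubiquitin-like modifier induced by interferon, read 223 in NSLC and 669 in HSLC on low sodium, and 343 and 417 on high sodium. The HSLC sample was the higher on either diet, by 3.04-fold on low sodium (1.61) and by a log2 ratio of 0.55 on high sodium. HERC5, the ligase that attaches ISG15 to proteins, read 180 and 352 on low sodium and 346 and 315 on high sodium. Its NSLC low sodium sample was the low one of the 4. The ratio of 1.02 was short of 2-fold with cyclic loess (0.89). In the series matrix as deposited the HERC5 ratio was 0.80, where the median of all genes was -0.24. The other 16 detected genes of the type I interferon list did not stand with these 2. They ranged from -0.43 for IFIT1 to 0.06 for RIGI, and the list's median was -0.04 with 7 of 18 above 0.

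ANXA10, a member of the calcium-binding annexin family, read 304 in NSLC and 867 in HSLC on low sodium, and 465 and 846 on high sodium. Both HSLC samples were above both NSLC samples, at log2 ratios of 1.46 and 1.15. HBG1 and HBG2, the fetal globins, each stood at 1.29 on low sodium and at 1.82 and 2.02 on high sodium. HBG2 read 208 in NSLC and 499 in HSLC on low sodium, and 121 and 457 on high sodium. The coding sequences of the 2 genes are nearly identical, so their probes may report the same RNA. The adult globins HBB (0.32) and HBA1 (0.28) were higher by less, and HBD, the minor adult globin, stood at -0.22. ALAS2, the erythroid enzyme of haem synthesis, stood at 0.01. Over the 9 detected erythrocyte genes the median was 0.08 and 6 were above 0, and on high sodium the median of this list was 0.75.

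SET, a histone chaperone and inhibitor of protein phosphatase 2A, had the lowest ratio among genes with a symbol. It read 485 in NSLC and 168 in HSLC on low sodium, and 606 and 155 on high sodium. SET was thus low in both HSLC samples, 3.15-fold lower on low sodium (-1.65) and at -1.57 on high sodium. DHRS3, which reduces retinal to retinol, read 444 and 213 on low sodium and 393 and 149 on high sodium. Its log2 ratios of -1.16 and -1.03 were again of like size on either diet. The other 21 detected genes of retinoid metabolism lay between -0.36 (RBP5, a retinol-binding protein) and 0.26 (RARRES2).

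ADD3, the gamma adducin that caps actin filaments in the membrane skeleton, read 545 in NSLC and 291 in HSLC on low sodium, and 734 and 240 on high sodium. Both HSLC samples were below both NSLC samples. The ratio of -1.01 sat on the size rule and moved to -0.88 with no normalization or median scaling, and the other detected probe gave -0.60. The other adducins stood at -0.11 (ADD1) and -0.09 (ADD2), with ADD2 near the detection limit. TNS3, a tensin of focal adhesions, read 659 and 352 on low sodium and 1844 and 303 on high sodium. Its ratio on low sodium lay just inside the size rule (-0.88 with median scaling) and that on high sodium was -2.24, where the NSLC sample alone was much higher. TNS1 and TNS4 stood at -0.02 and -0.21.

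MAPK13, the delta isoform of the p38 stress kinases, read 204 in NSLC and 101 in HSLC on low sodium, and 186 and 81.8 on high sodium. HSLC was again the lower on both diets, at -1.07 (-0.96 with median scaling) and -0.88. The p38 isoforms MAPK11 and MAPK12, the latter abundant in muscle, stood at 0.01 and 0.23. BASP1, a membrane-bound signalling protein, behaved otherwise. It read 318 and 144 on low sodium and 330 and 524 on high sodium, so that HSLC was the lower on low sodium (-1.27) and the higher on high sodium (0.93).

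**Figure D3:**
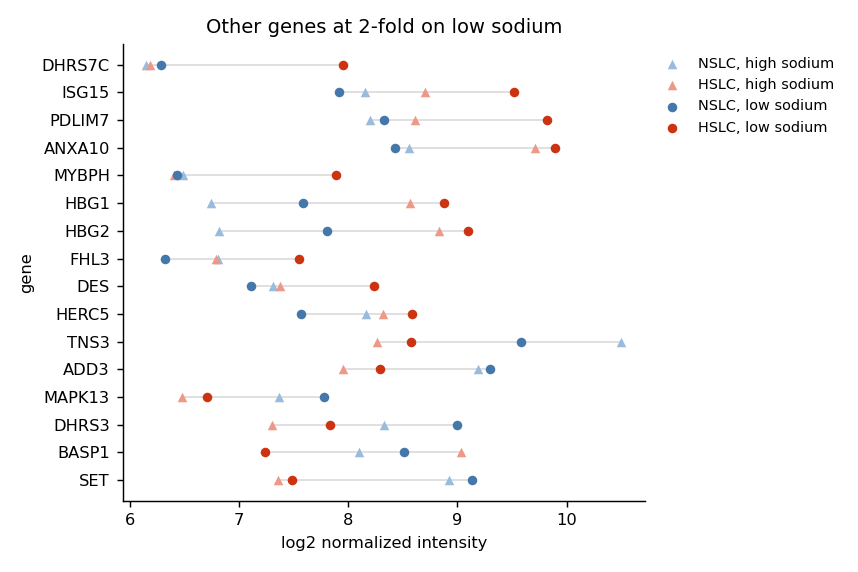
Log2 normalized intensity (horizontal axis) in the 4 samples of the 16 genes outside the muscle list at 2-fold or more on low sodium (vertical axis). Circles are low sodium, triangles high sodium, blue NSLC and red HSLC. Both red points lie right of both blue points for ISG15, PDLIM7, ANXA10, HBG1, HBG2, DES and HERC5, and left of them for TNS3, ADD3, MAPK13, DHRS3 and SET, whereas BASP1 has its 2 red points on opposite sides.

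The high sodium arrays are separate hybridisations and gave a second reading of the phenotype ratio, from animals whose relation to the first is not given. Of the 16 genes outside the muscle list at 2-fold on low sodium, 13 had the same sign on high sodium and 7 were again at 2-fold with that sign: SET, DHRS3, ADD3, TNS3, ANXA10, HBG1 and HBG2. Among the 13, DHRS7C (0.03) was below the detection limit on both high sodium arrays and DES stood at 0.06, so their signs carry little information. The share of all genes at 2-fold on high sodium was 0.0959% higher and 0.352% lower in HSLC. The 40 lowest ratios outside the muscle list on low sodium were below 0 on high sodium in 39 genes, and the 40 highest were above 0 in 28. Of all 12461 genes outside that list detected on both high sodium arrays, 6982 were above 0 on that diet. Across 11852 genes outside the muscle list detected on all 4 arrays the ratios correlated at a Pearson r of 0.43 and a Spearman rho of 0.28, and all 4 arrays were normalized together.

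**Figure D4:**
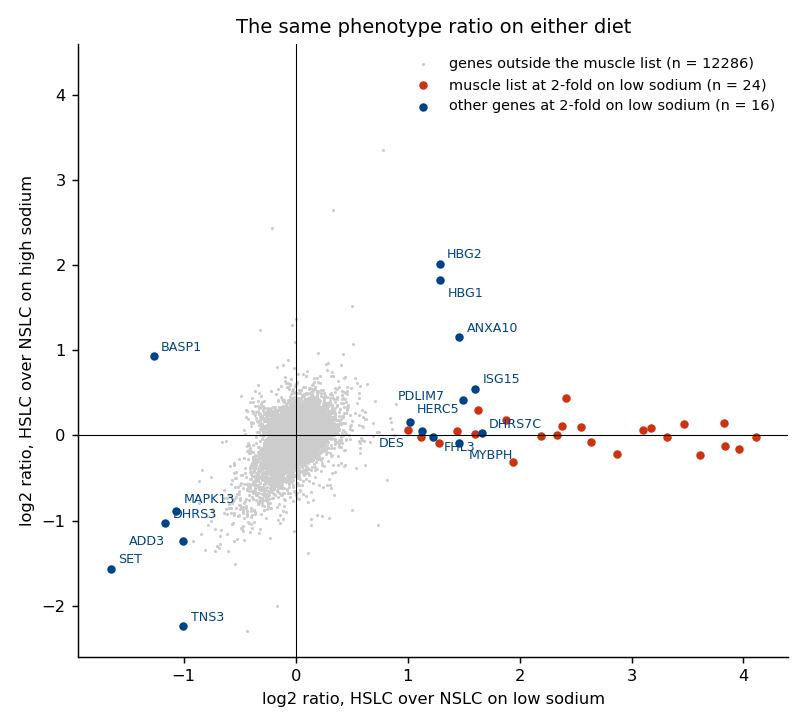
Log2 ratio of HSLC over NSLC on low sodium (horizontal axis) and on high sodium (vertical axis), with 1 point a gene. Grey points are genes outside the muscle list detected on both low sodium arrays, red points the 24 muscle-list genes and blue points the 16 other genes at 2-fold on low sodium. The red points spread along the horizontal axis with high sodium ratios within 0.44 of 0, and 13 of the 16 blue points lie in the quadrants of equal sign. Of the 24 red genes 14 were detected on both high sodium arrays.

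Below the size rule, the next lowest genes were DPP4, a brush border peptidase (-0.92), ECRG4 (-0.86), TSPAN13 (-0.86), CDKN3, a cell cycle phosphatase (-0.84), BTBD16 (-0.83) and HADH, an enzyme of mitochondrial fatty acid oxidation (-0.81). DPP4 read 434 in NSLC and 247 in HSLC on low sodium, and 581 and 189 on high sodium. HADH read 988 and 593 on low sodium, and 1387 and 429 on high sodium. Both were low in both HSLC samples. The next highest were ELMOD1 (0.97) and plasminogen (PLG, 0.90), the latter at 201 and 369 on low sodium and 186 and 204 on high sodium.

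Of 43 listed proximal tubule genes 36 were detected on both arrays, 11 had a ratio above 0, and the median was -0.13, against 0.0029 over all genes tested. In the series matrix as deposited the list stood at -0.20 and the median of all genes at -0.24, so relative to that median the list's direction turned. The solute uptake genes had a median of -0.15 with 6 of 19 above 0 and the metabolic genes -0.07 with 5 of 17. SLC17A3, an organic anion and urate transporter, was the lowest at -0.73, with readings of 610 in NSLC and 392 in HSLC. DPYS, a pyrimidine-degrading enzyme (-0.55), the gluconeogenic enzyme FBP1 (-0.51) and the sodium-phosphate cotransporter SLC34A1 (-0.48) followed. The endocytic receptors LRP2 (0.15) and CUBN (0.06) were on the other side of 0. On high sodium the same list had a median of -0.36 with 4 of 35 above 0, and SLC17A3 stood at -1.35.

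The thick ascending limb list had a median of about the same size on the other side of 0, at 0.12 with 6 of 8 above 0, led by the potassium channel KCNJ1 (0.28), the prostaglandin receptor PTGER3 (0.22) and SLC12A1, the loop-diuretic target (0.16). Distal convoluted and connecting tubule genes had a median of -0.05 with 5 of 12 above 0. SLC12A3, the thiazide-sensitive cotransporter, stood at -0.07 and KLK1, tissue kallikrein, at -0.06, and both turned positive (0.03 and 0.02) with no normalization. Principal cell genes stood at -0.02 with 4 of 9 above 0, intercalated cell genes at -0.04 with 4 of 11 and podocyte genes at -0.03 with 4 of 10. TCF21, a podocyte transcription factor, was the highest podocyte gene at 0.37.

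Every detected gene of sodium transport and of the renin-angiotensin and aldosterone list differed by less than 2-fold. Over all genes tested only 0.275% were 2-fold higher and 0.0486% lower, so this does not set these lists apart. Of 20 detected sodium transport genes 10 were above 0 and the median was -0.02. SCNN1A, the alpha subunit of the epithelial sodium channel, stood at -0.41, with readings of 823 in NSLC and 653 in HSLC on low sodium. The gamma subunit SCNN1G stood at -0.19, and the beta subunit SCNN1B at 0.0023. SLC4A4, the basolateral bicarbonate cotransporter, stood at -0.39 and the kinase SGK1, induced by aldosterone, at 0.14. FXYD4, a sodium pump regulator, had the highest ratio (0.44) but read only 82.5 and 105, near the detection limit.

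In the renin-angiotensin and aldosterone list 5 of 14 genes were above 0, with a median of -0.03. ENPEP, the aminopeptidase that degrades angiotensin II, was lowest at -0.61, with readings of 665 in NSLC and 467 in HSLC on low sodium. MME, the neprilysin that cleaves angiotensin and natriuretic peptides, stood at -0.40 (-0.06 on its other detected probes), and HSD11B2, which shields the mineralocorticoid receptor from cortisol, at -0.38. AGT (angiotensinogen) stood at -0.12, ACE at -0.02, AGTR1 at 0.01 and the mineralocorticoid receptor NR3C2 at 0.18. AGTR1 read 82.0 in NSLC, near the array's median of 77.7, where a ratio near 0 does not show an equal level.

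Mitochondrial genes leaned lower by small amounts. Over all genes tested 50.8% were above 0, with a median of 0.0029. The medians of the lists below were smaller than the spread of 0.13 between probes. They were not recomputed under other processing settings. Of 31 detected oxidative phosphorylation genes 6 were above 0, with a median of -0.10, and the lowest were NDUFB5 (-0.67) of complex I and the cytochrome oxidase subunits COX6C (-0.50), COX7C (-0.46) and COX6B1 (-0.43). Fatty acid oxidation stood at -0.09 with 4 of 18 above 0, and after HADH the lowest were the peroxisomal genes CAT (-0.44) and EHHADH (-0.35). The tricarboxylic acid cycle list stood at -0.10 with 5 of 14 above 0. Glycolysis genes stood at 0.03, and their highest members were PFKM (0.40), the muscle form of phosphofructokinase, and ALDOA (0.38), the aldolase of muscle and red cells. Muscle transcripts moved with these 2 genes, and their part in the ratios was not tested.

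Matrix genes leaned higher, with 21 of 26 above 0 and a median of 0.13, against 50.8% above 0 over all genes tested. This median was about the size of the spread between probes and was not recomputed under other processing settings. FBLN1, a fibulin of basement membranes and elastic fibres, stood at 0.69, FBLN2 at 0.58, and the proteoglycan DCN at 0.45, while TIMP2, a metalloproteinase inhibitor, stood at -0.64. Other detected probes did not repeat these values for FBLN1 (-0.07, -0.01 and 0.21), DCN (0.07) and TIMP2 (0.0057). FBLN1 read 650 in NSLC and 1101 in HSLC on low sodium, and its ratio on high sodium was -0.01. Of 16 detected injury genes 9 were above 0 with a median of 0.04. SPP1, osteopontin, was the highest at 0.84 (142 and 239), followed by SERPINA3 (0.53) and HAVCR1, the injury marker KIM-1 (0.44), which read 96.0 and 121 on low sodium and 739 and 799 on high sodium.

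Several function lists had medians near 0. The kallikrein, endothelin and natriuretic peptide genes stood at 0.03 with 5 of 8 above 0, complement genes at 0.0077 with 8 of 15 and ribosomal protein genes at 0.04 with 12 of 21. Of 5 detected metallothioneins, which bind zinc and copper, 1 was above 0, and MT1F stood at -0.44. In the membrane skeleton list, with a median of -0.01 and 7 of 15 above 0, the actin-capping TMOD1 stood highest at 0.72. TMOD1 read 147 in NSLC and 229 in HSLC on low sodium, and 162 and 142 on high sodium. Muscle transcripts moved with TMOD1 on low sodium, and their part in its ratio was not tested. The focal adhesion list, with 7 of 15 above 0, was led by the kinase PTK2 at 0.26, which stood at -0.06 on its other detected probe. The p38 and stress kinase list had a median of 0.03 with 9 of 12 above 0, and the retinoid list 0.07 with 14 of 22.

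Immediate early genes stood at 0.13 with 14 of 18 above 0, against 50.8% above 0 over all genes tested. The median was about the size of the spread between probes and was not recomputed under other processing settings. On high sodium this list stood at -0.04 with 7 of 19 above 0. EGR1 led on low sodium at 0.81, with readings of 518 in NSLC and 956 in HSLC. On high sodium EGR1 read 2041 and 1114. ATF3 followed at 0.73 on low sodium. HSPB8, a small heat shock protein abundant in muscle, stood at 0.61 and the mitochondrial chaperone HSPD1 at -0.54 (-0.04 on its other detected probe), in a heat shock list with a median of -0.00092. MHC class II genes stood at -0.15 with 2 of 10 above 0, lowest for HLA-DQB1 (-0.62) and highest for HLA-DPA1 (0.27).

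Among lists of other cell types, the highest median was that of platelet genes and the lowest that of MHC class II genes. Adipocyte genes, which would mark fat around the kidney, were detected in 5 of 12 cases with a median of 0.0077, and ADIPOQ stood at -0.11. The endothelial list stood at -0.03 with 5 of 13 above 0, and macrophage genes at 0.08 with 8 of 11. T and NK cell genes stood at 0.03 with 8 of 11 above 0, B and plasma cell genes at -0.12 with 1 of 5, and neutrophil genes at 0.0027 with 4 of 7. In the smooth muscle and fibroblast list, at 0.09 with 8 of 13 above 0, ACTA2, the smooth muscle actin, stood at -0.49 and MYH11, smooth muscle myosin, at 0.13. DES was its only member at 2-fold. Platelet genes were led by GP1BB (0.74), a part of the von Willebrand factor receptor, and stood at 0.24 over 4 detected members.

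**Figure D5:**
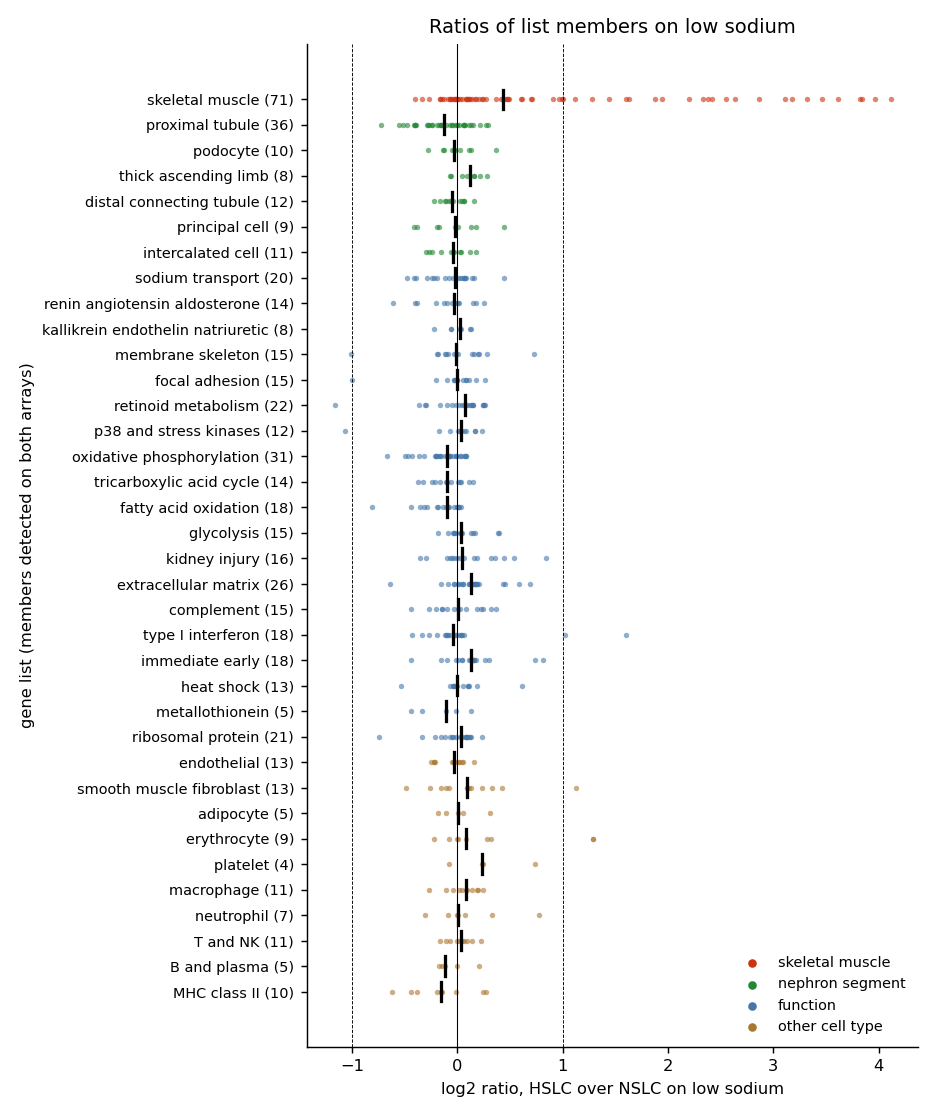
Log2 ratio of HSLC over NSLC on low sodium (horizontal axis) for the detected members of 36 gene lists (vertical axis, number detected in parentheses), with 1 point a gene and the list median as a black bar. Dashed lines mark 2-fold. The skeletal muscle list extends to 4.11, and the 6 nephron segment lists in green lie between -0.73 and 0.44.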

How the data were processed

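Total RNA of kidney biopsies was labelled with Cy3 by the Illumina TotalPrep kit, per the labels' protocols. The authors deposited linear signal intensity for 48702 probes per array, made with BeadStudio, per the submitters' processing notes. The version, background correction and normalization were not given in the sources used here, and the files hold no detection p-value. The deposited series matrix holds a second intensity table, whose column means are equal within each phenotype but not between them.

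The sample files were used, without 1 probe listed at 0. The intensities were corrected by normexp (offset 50), the 4 arrays were quantile normalized together, and log2 was taken (limma 3.58.1, R 4.3.3), then pandas 2.3.3 in Python 3.11.15. The offset compresses ratios. A probe above its array's median counted as detected. Of the probes 23687 had 1 gene symbol, 35 several and 24979 none; only the first were named. Symbols follow the annotation given with the array, and older list symbols were updated by hand. The brightest probe stood for each of 18774 genes. Outside the muscle list, ratios from a gene's 2 brightest detected probes differed with a standard deviation of 0.13 per probe (1434 genes). A baboon sequence that differs from the human probe can lower its signal. With 1 array per group the number of arrays limits the precision.

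Named were the 12 highest and 12 lowest genes outside the muscle list, the 12 highest of that list, every gene at 2-fold, up to 4 members per list and a fixed set of sodium and renin-angiotensin genes. Other list members are named after their values were seen. Members, lists and rules were chosen with earlier results of these data known. The steps were tested on simulated data. The alternatives were other scalings, background corrections, detection limits, probe rules, the series matrix and 1.5-fold.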

Additional observations from a re-analysis of the deposited data

Results flagged for a closer look

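With 1 array per group none of these differences was tested. BASP1, EGR1 and ATF3 had ratios of HSLC over NSLC of opposite sign on the 2 diets, each of at least 0.5 in size. For BASP1 the log2 ratio on high sodium exceeded that on low sodium by 2.20, from -1.27 to 0.93. For EGR1, an immediate early transcription factor, the difference was -1.33 (0.81 on low and -0.52 on high sodium), and for ATF3, a stress-induced factor, -1.78 (0.73 and -1.05).

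Probes without a gene symbol, which the comparison did not use, also held signal. Of 8741 detected on both low sodium arrays 5 were 2-fold higher in HSLC and 6 lower. The highest, ILMN_1715748, stood at 1.97, with intensities of 188 in NSLC and 712 in HSLC on low sodium and 432 and 273 on high sodium. The lowest, ILMN_1739508, stood at -2.37 (2410 and 476 on low sodium, 859 and 1623 on high sodium). ILMN_1699214 stood at -2.24 (1554 and 339 on low sodium, 528 and 1020 on high sodium). The latter 2 were at 1.29 on high sodium.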

How the results depend on the processing

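No paired analysis was possible because each group has 1 array. Of 15 alternatives 12 were planned and 3 were added after seeing the data, and no gene at 2-fold changed sign in any of them. The 6 lower genes numbered 3 with no normalization, with median scaling and with quantile normalization of the low sodium arrays only. SET, BASP1 and DHRS3 stayed at 2-fold in each setting run. Genes higher outside the muscle list numbered 36 and lower ones 40 at 1.5-fold, and 5 genes were higher when the muscle list was widened by DHRS7C, MYBPH, FHL3, PDLIM7 and DES (added). Muscle genes at 2-fold numbered 15 with detection above the 75th percentile and 14 with detection on all 4 arrays (added). The rest of the 24 fell below the limit applied. In the latter setting 11908 of 12357 genes were still tested, but only 14 of the 24 were detected on both high sodium arrays. The muscle list's median was 0.59 with an offset of 16, 0.25 with no detection filter, 0.22 with detection on all 4 arrays and 0.14 in the series matrix as deposited. That matrix (added) shifted the median of all genes to -0.24. Relative to it 15 genes outside the muscle list were 2-fold higher and 1 lower, against 7 and 5 when the shift was left in. With the shift left in, the podocyte list stood at -0.33 and the thick ascending limb at -0.0093. Principal cells stood at -0.25 and intercalated cells at -0.29. These 4 medians are to be read against the -0.24 of all genes, above which the thick ascending limb stayed. The other nephron medians and settings moved by less than the spread between probes. Probes near the array median have little signal over background, so their ratios near 0 do not show equal levels.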
